A study of Mus musculus with 4 samples.

Results

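Type 2 conventional dendritic cells (cDC2) of the mouse mammary gland were examined in droplet RNA sequencing of CD45+ cells, the white blood cells of the tissue. A cell was taken as cDC2 when it carried at least 2 UMIs (counted RNA molecules) of the lectin genes Cd209a, Clec10a and Mgl2 together and at least 1 of Flt3 or Itgax. It was left out when it carried any UMI of Xcr1 or Clec9a (cDC1), Fscn1 or Ccl22 (migratory dendritic cells), Cd3e, Cd3d or Cd3g (T cells) or Cd79a or Ms4a1 (B cells), or more than 1 UMI of C1qa, C1qb and C1qc (macrophages) or of Retnla. The members were thus chosen by their own UMI counts of these genes. This rule was met by 298 of 42781 cells, 108 of 21604 in the earlier library and 190 of 21177 in the later library. The other gates met by dendritic cells and monocytes held 216 cells (cDC1), 74 cells (migratory dendritic cells) and 965 cells (monocytes).

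Conventional dendritic cells take up antigen in a tissue, carry it to lymph nodes and show it to T cells on MHC molecules. cDC1 are known for presenting taken-up antigen on MHC class I to CD8 T cells, and cDC2 for presenting it on MHC class II to CD4 T cells. The growth factor receptor FLT3 supports both, IRF8 and BATF3 act in the development of cDC1, and IRF4, KLF4, NOTCH2 and ZEB2 are linked to cDC2. In the mammary gland such cells lie around ducts and alveoli, a tissue that grows in pregnancy, secretes milk in lactation and regresses after weaning.

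Each of 2 pooled libraries joined cells of several samples that had been marked with antibodies bearing a DNA tag. The deposited sheets name tag HT4 Nulliparous (mice that had not been pregnant), HT5 Gestation and HT6 Lactation in both libraries, and in the later one also HT8 Involution (the gland shrinking after weaning), HT9 Regression, HT10 Balb/c (an inbred strain) and HT12 GF. HT2 is named Germ-free on both sheets, but the title of the earlier library has Involution and no such name, so it is called the HT2 sample here. HT4 had 1 count in the later library, which leaves Nulliparous to the earlier one. Samples found in both libraries are called earlier and later Gestation, Lactation and HT2. How many animals shared a tag, at which stage Balb/c and GF mice were taken, and the strain of the rest are details not given in the labels used here. All samples were CD45+ cells released from the gland with collagenase type 2. The tags that carry the sample-level results below are shown because every statement on a sample rests on reading them. All 15 bases are in capitals since the whole tag is read, and the fewest mismatches between any of these and another named tag were 9 (HT6) or 10 (the others).
HT2: GGTCGAGAGCATTCA
HT5: CTTTGTCTTTGTGAG
HT6: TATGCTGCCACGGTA
HT10: CCGATTGTAACAGAC

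The libraries differed in depth, with a median of 1599 UMIs per cell in the earlier and 3049 in the later one. The median cDC2 held 2488 and 5722 UMIs, the median cDC1 3602.5 and 7950.5, and the median monocyte 1814 and 3768. The libraries share 139 barcodes, and 2 cDC2 carried a shared barcode, with none meeting the rule in both. A tag call with exactly 1 sample was made for 231 of the 298 cDC2, 8 of these were called doublets by Scrublet and left out, and 223 entered the values per sample (84 in the earlier and 139 in the later library). The later Lactation sample stands apart: its tag was weak, with a median of 6 tag counts per cell against 13 in later Gestation and 22 to 128 in the others, and it held 3 cDC2 of 783 cells. Intervals and lower bounds below cover counting error only. Nothing in the labels ties these samples to single animals, so p-values measure the spread between hash-defined samples, which edgeR partly borrows from all genes.

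The genes that chose the cells are described first, with no test. Cd209a, a DC-SIGN-type lectin gene (chromosome 8, 3743395 to 3748984, GRCm38.p6), had a UMI in 235 of the 298 cells, and Clec10a, the macrophage galactose-type lectin 1 gene (chromosome 11, 70166623 to 70170836), in 226. Mgl2, the neighbouring second galactose-type lectin gene (chromosome 11, 70130125 to 70137542), had a UMI in 140 cells. All 3 lectin genes were detected together in 83 cells, and Cd209a with Clec10a but without Mgl2 in 91. A single lectin gene carried the call in other cells: Cd209a in 37, Clec10a in 30 and Mgl2 in 11. Flt3 (chromosome 5, 147330741 to 147400489) had a UMI in 210 cells and Itgax, the CD11c gene (chromosome 7, 128129526 to 128150657), in 159, with both in 71. Clec10a and Mgl2 are closely similar neighbours, and Cd209a has a close relative in Cd209d on the same chromosome, so the split of reads within each pair is uncertain.

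At the edge of the rule, 24 cells of the earlier and 28 of the later library had exactly 2 lectin UMIs, and 44 and 88 cells just outside it met every other condition with a lectin sum of 1. In the later library the invariant chain gene Cd74 stood at 58.6 UMIs per 10000 at a sum of 1, 85.4 at 2 and 213 at 3 or more. Irf8 was highest at a sum of 2, at 4.29, 18.3 and 3.21 per 10000 at the same sums, and so was Siglech, a receptor gene of plasmacytoid dendritic cells, at 1.97, 9.63 and 1.95. In the earlier library Cd74 stood at 91.5, 112 and 123 per 10000 at the same sums.

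Checked against marker genes that the rule did not use, most of the cells carried genes listed for cDC2 and a minority carried those of another dendritic cell type. Plasmacytoid dendritic cells are specialised producers of type I interferon and are marked by Siglech, Klk1 and Cox6a2. After values had been seen, the cells were divided by these 3 genes: 260 had no UMI of them, 3 had 1, and 35 (11.7%, 95% exact binomial interval 8.32 to 16) had 2 or more. The same threshold was met by 1 of 216 cDC1, 5 of 965 monocytes, 7 of 5569 B cells and 14 of 12381 T cells. The 35 cells are called the plasmacytoid-gene cells here, and they receive no cell type name. Of the 35, 26 were among the 223 cells used per sample. They were unevenly spread: 12 of the 19 Balb/c cells, 4 of 21 in Nulliparous, 4 of 38 in later HT2, 3 of 15 in later Gestation, 2 of 17 in GF and 1 of 16 in earlier Lactation. The other 5 samples had none, and 5 of the 108 cells of the earlier library (4.63%) against 30 of the 190 of the later one (15.8%) were of this kind.

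The plasmacytoid-gene cells differed from the other 263 across genes that neither the rule nor the division used. Irf8 stood at 32.2 UMIs per 10000 against 0.55, the surface antigen gene Bst2 at 26.4 against 2.10, Ly6c2 at 24 against 0.95, and the gut-homing receptor gene Ccr9 at 7.36 against 0.07. The nucleic acid sensor gene Tlr7 stood at 2.12 against 0.10 and the inhibitory receptor gene Lair1 at 6.56 against 0.24. Cd4, the coreceptor gene of helper T cells, had a UMI in 48.6% of them and in 2.28% of the others, at median depths of 4994 and 4660 UMIs. MHC class II and some myeloid genes, picked after their values were seen, ran the other way. H2-Aa stood at 16.6 against 95.2, H2-Eb1 at 7.25 against 80.8, the CD11b gene Itgam at 0.11 against 1.86, S100a4 at 2.43 against 16.7 and Atf3 at 0.21 against 5.08. Tnip3, an inhibitor of NF-kB signalling, had no UMI in them and stood at 2.41 in the others. By whole lists, the monocyte genes, which include Ly6c2, stood higher in the plasmacytoid-gene cells (91.8 against 57.2), the macrophage genes stood at 11.1 against 13.4, and class II stood at 121 against 512. These are descriptions of cells divided after the fact, and no test was made.

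Per cell, the summed level of H2-Aa, H2-Ab1, H2-Eb1 and Cd74 had a median of 55.5 per 10000 UMIs (quartiles 9.94 and 88.3) in the plasmacytoid-gene cells and 465 (358 and 617) in the other 263. Of the former, 16 of 35 sat at the minimum of 2 lectin UMIs, against 36 of 263 of the latter, and Mgl2 was detected in 17.1% against 51.0%. Flt3 was detected in 88.6% against 68.1%. The shares of all CD45+ cells and of both conventional gates below are given with and without these cells. The gene list sums per sample leave them out, and values with them are added for samples where they differ most.

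**Figure D1:**
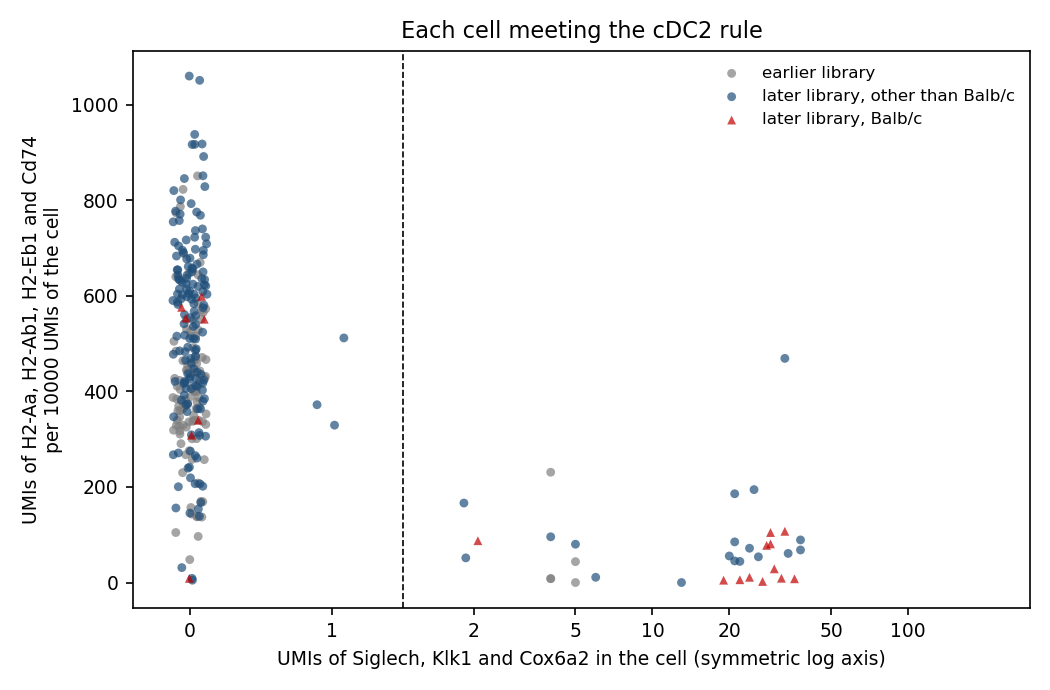
Each point is 1 of the 298 cells, placed by its UMIs of Siglech, Klk1 and Cox6a2 (horizontal, symmetric log axis) and its UMIs of H2-Aa, H2-Ab1, H2-Eb1 and Cd74 per 10000 (vertical), with the dashed line at the division into 263 and 35 cells. Cells right of the line have a median class II level of 55.5 against 465 left of it, and the Balb/c cells (triangles) lie on both sides.

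Of all 29899 cells with 1 tag and no Scrublet call, 197 (0.659%) had 2 or more UMIs of Siglech, Klk1 and Cox6a2 and none of the T or B cell genes of the rule, and 26 of the 197 (13.2%) met the cDC2 rule. The share was highest in Balb/c, with 52 of 1972 cells (2.64%, 1.98 to 3.44). The Balb/c label has a check of its own in H2-Ea, an MHC class II chain gene that mice of some haplotypes do not transcribe. H2-Ea stood at 50.4 UMIs per 10000 in the Balb/c cDC2 without plasmacytoid-gene cells and between 0 and 0.04 in each of the other 10 samples.

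Markers of other cell types were measured in the cDC2 of each sample. The B cell markers stood at 10.3 to 18 UMIs per 10000 in the 4 earlier samples, at 14.1 in Balb/c and at 3.3 to 8.9 in the other 6, and the plasma cell markers at 8.8 to 11.6 in the earlier and 3.0 to 7.4 in the later samples. Igkc, an immunoglobulin light chain gene, led the B cell list in both libraries, and Pax5 and Ebf1 of that list were at 0 in the earlier one. Over cells of all kinds the B cell list stood at 351 and 116 in the 2 libraries. The 263 cells without plasmacytoid genes also include cells outside the values per sample, among them 36 with 2 or more tags and 10 Scrublet calls. In the 263, the B cell markers stood at 183 in the earlier and 5.96 in the later library, and the plasma cell markers at 115 and 3.33. The summed NK cell markers stood at 25.1 UMIs per 10000 in cDC2 of earlier Lactation (48.3% of these UMIs in 1 cell), 7.9 in later Lactation (all of these UMIs in 1 cell) and 6.1 in GF (96.8% in 1 cell), and at or under 1.0 in the other 8 samples. The milk protein genes stood at 63.4 in earlier HT2, with 90.2% in 1 cell, and between 4.9 and 10.4 elsewhere. The stromal and endothelial markers stood at 17.4 in later HT2 and at or under 2.4 elsewhere. Most of the later HT2 value came from 1 gene of the list, Fabp4, with 403 UMIs. The part of these RNAs in the results below was not tested unless a value is given beside the result.

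cDC2 were a small share of CD45+ cells everywhere and were most frequent in the HT2 samples and in Involution. In the earlier library they made up 0.373% of cells in Nulliparous (21 of 5632, 0.231 to 0.569), 0.227% in Gestation (10 of 4408, 0.109 to 0.417), 0.661% in Lactation (16 of 2421, 0.378 to 1.07) and 1.31% in HT2 (37 of 2826, 0.923 to 1.80). The HT2 interval lay above those of Nulliparous and Gestation and overlapped that of Lactation. In the later library the shares were 0.451% in Gestation (15 of 3328, 0.252 to 0.742), 0.383% in Lactation (3 of 783, 0.0791 to 1.12), 1.26% in Involution (28 of 2219, 0.840 to 1.82) and 0.794% in Regression (19 of 2392, 0.479 to 1.24). They were 0.963% in Balb/c (19 of 1972, 0.581 to 1.5), 0.801% in GF (17 of 2123, 0.467 to 1.28) and 2.12% in HT2 (38 of 1795, 1.5 to 2.89). The later HT2 interval overlapped that of Involution, and the Involution interval lay above that of Gestation.

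Without the plasmacytoid-gene cells, the Balb/c share was 0.355% (7 cells, 0.143 to 0.730), beside 0.361% (12 cells) in later Gestation. The later HT2 share was then 1.89% (34 cells, 1.32 to 2.64), GF 0.707%, earlier Lactation 0.620% and Nulliparous 0.302%. Each cell was also thinned to 1000 UMIs, since a cell with more UMIs has more chances to reach the lectin threshold. Earlier HT2 then stood at 0.599% and later HT2 at 0.930%, above the other 9 samples (0.0914% to 0.303%). Involution, at 0.185%, lay within the range of those 9. Its thinned interval (0.0503 to 0.472) overlapped that of later Gestation (0.0189 to 0.267). The thinned interval of earlier HT2 (0.310 to 1.04) overlapped those of Nulliparous (0.0692 to 0.354) and earlier Gestation (0.0552 to 0.396).

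**Figure D2:**
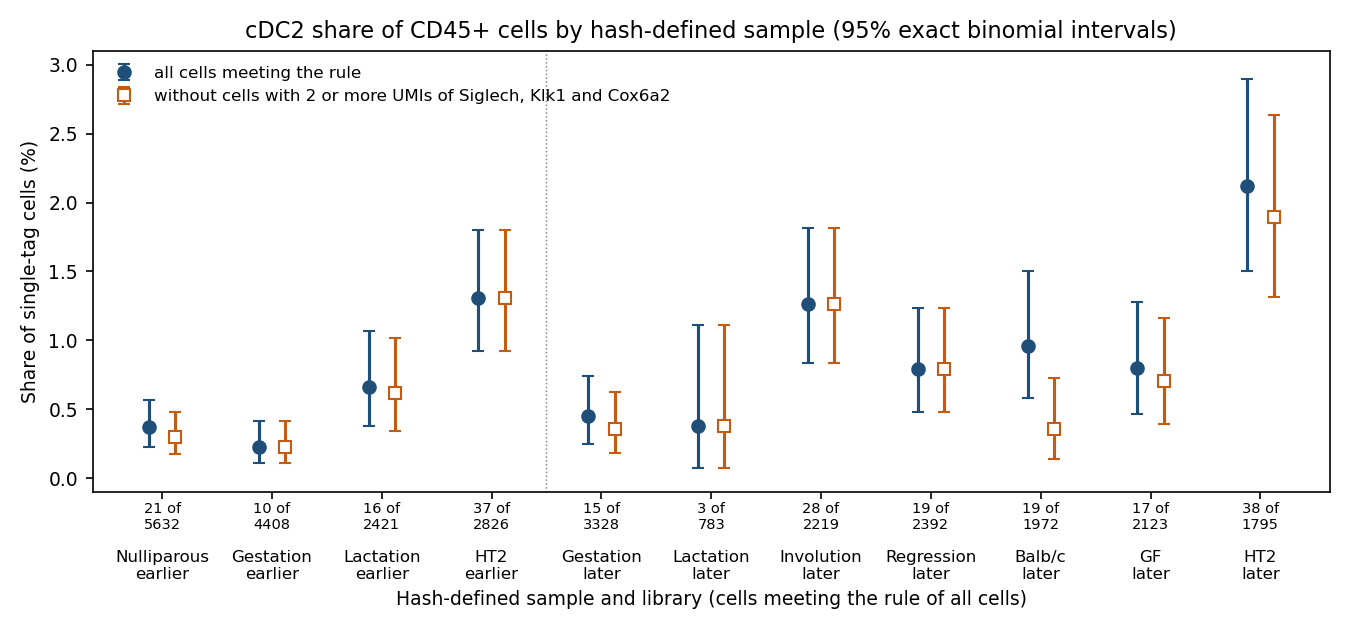
Share of cells with 1 tag that met the cDC2 rule (vertical, %) in each hash-defined sample (horizontal), with 95% exact binomial intervals; circles are all cDC2 and squares leave out the plasmacytoid-gene cells. HT2 is highest in each library (1.31% and 2.12%), and Balb/c moves from 0.963% to 0.355%.

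The high share in HT2 was not particular to cDC2. cDC1 made up 0.920% of earlier and 2.28% of later HT2 cells, the highest of each library, and monocytes 3.68% and 6.07%, again the highest. Of the cells in both conventional gates, cDC2 formed 58.7% and 48.1% in the HT2 samples, 38.5% in earlier Gestation, 50% in Nulliparous, 55.2% in earlier Lactation and 60.7% in GF. They formed 65.1% in Involution, 68.2% in later Gestation, 73.1% in Regression and in Balb/c (19 of 26 cells each), and 23.1% in later Lactation, where 3 cells met the cDC2 rule. Without the plasmacytoid-gene cells the Balb/c value was 50% (7 of 14 cells), and that of Regression stayed as it was, since none of its cells were of this kind. Nulliparous then stood at 44.7%, earlier Lactation at 53.6%, later Gestation at 63.2%, GF at 57.7% and later HT2 at 45.3%.

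Apart from HT2, whose name is disputed, Gestation and Lactation were the names with cells in both libraries. The mean cDC2 share was 0.522% in Lactation and 0.339% in Gestation, a difference of 0.183 percentage points (exact two-sided permutation test, p = 0.667, n = 2 samples each), and 0.333 is the smallest p this design allows. The libraries differed in direction: Lactation was higher by 0.434 points in the earlier library and lower in the later library, by -0.0676 points. Within the later library the value rests on the 3 cells of Lactation. With 2 samples a stage no difference could have passed the threshold.

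The state of the cells was followed through summed gene lists per sample, as UMIs per 10000 UMIs, without the plasmacytoid-gene cells unless stated. The MHC class II list stood at 461 in Nulliparous, 448 in Gestation, 418 in Lactation and 488 in earlier HT2. In the later library it stood at 597 in Gestation, 326 in Lactation (3 cells), 645 in Involution, 656 in Regression, 476 in Balb/c, 522 in GF and 539 in HT2. Leaving later Lactation aside, the samples of the later library other than Balb/c were higher than every sample of the earlier library. Of the single genes, Cd74 differed most, at 117 to 151 in the earlier samples against 188 to 279 in the later ones outside Lactation, whereas H2-Aa stood at 94.8 to 111 and 90.0 to 120. Within the later library, H2-Eb1 was highest in Involution (107) and Regression (105) and lower in Gestation (90.4), GF (80.7), HT2 (79.5) and Balb/c (59.2). With all cells included, the class II list in Balb/c was 229 and its H2-Eb1 23.6, and GF, at 484, then lay below earlier HT2.

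The immediate early and heat shock genes, which respond to a stimulus within minutes, varied widely. Their sum was 184 in Regression, 155 in later Gestation, 143 in Involution and 129 in later HT2, and lay between 78.2 and 97.4 in the 4 samples of the earlier library. It was 56.3 in Balb/c, 98.6 in GF and 100.1 in later Lactation. With the plasmacytoid-gene cells it was 59.1 in Balb/c and 133 in later Gestation, below Involution. The transcription factor gene Egr1 stood at 14.8 in Regression, 8.24 in Involution, 7.66 in HT2 and 7.17 in later Gestation, against 1.60 in Balb/c and 3.29 in GF. Junb, an AP-1 subunit gene, stood at 5.27 to 6.0 in the earlier library and at 19.1 in Gestation, 19.0 in Regression, 15.0 in HT2 and 14.6 in Involution of the later library. The library and the stages that occur only in the later library cannot be told apart for these genes.

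Interferon response genes were highest in Balb/c (80.8) and in earlier Lactation (71.8), followed by GF (55.3), with 24.4 in Nulliparous and 32.8 to 45.4 in the other 7 samples. Ifi27l2a, an interferon-induced gene of mitochondria, stood at 1.87 in Nulliparous, 4.40 in Gestation, 20.3 in Lactation and 6.89 in earlier HT2. In the later library it stood at 25.1 in Balb/c, 17.9 in GF, 12.2 in Regression, 11.7 in Involution, 11.6 in Gestation, 9.97 in Lactation and 7.79 in HT2. Ifitm3, which restricts virus entry, had a narrower range, from 9.14 in later Lactation and 13.9 in Nulliparous to 29.3 in Balb/c. With the plasmacytoid-gene cells, the list stood at 83.1 in Balb/c, 60.3 in later Gestation (in place of 44.9) and 59.1 in GF, and in Balb/c Ifi27l2a at 29.0 and Ifitm3 at 14.5. The values of Balb/c without these cells rest on 7 cells, of which 1 held 31.4% of the list's UMIs.

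**Figure D3:**
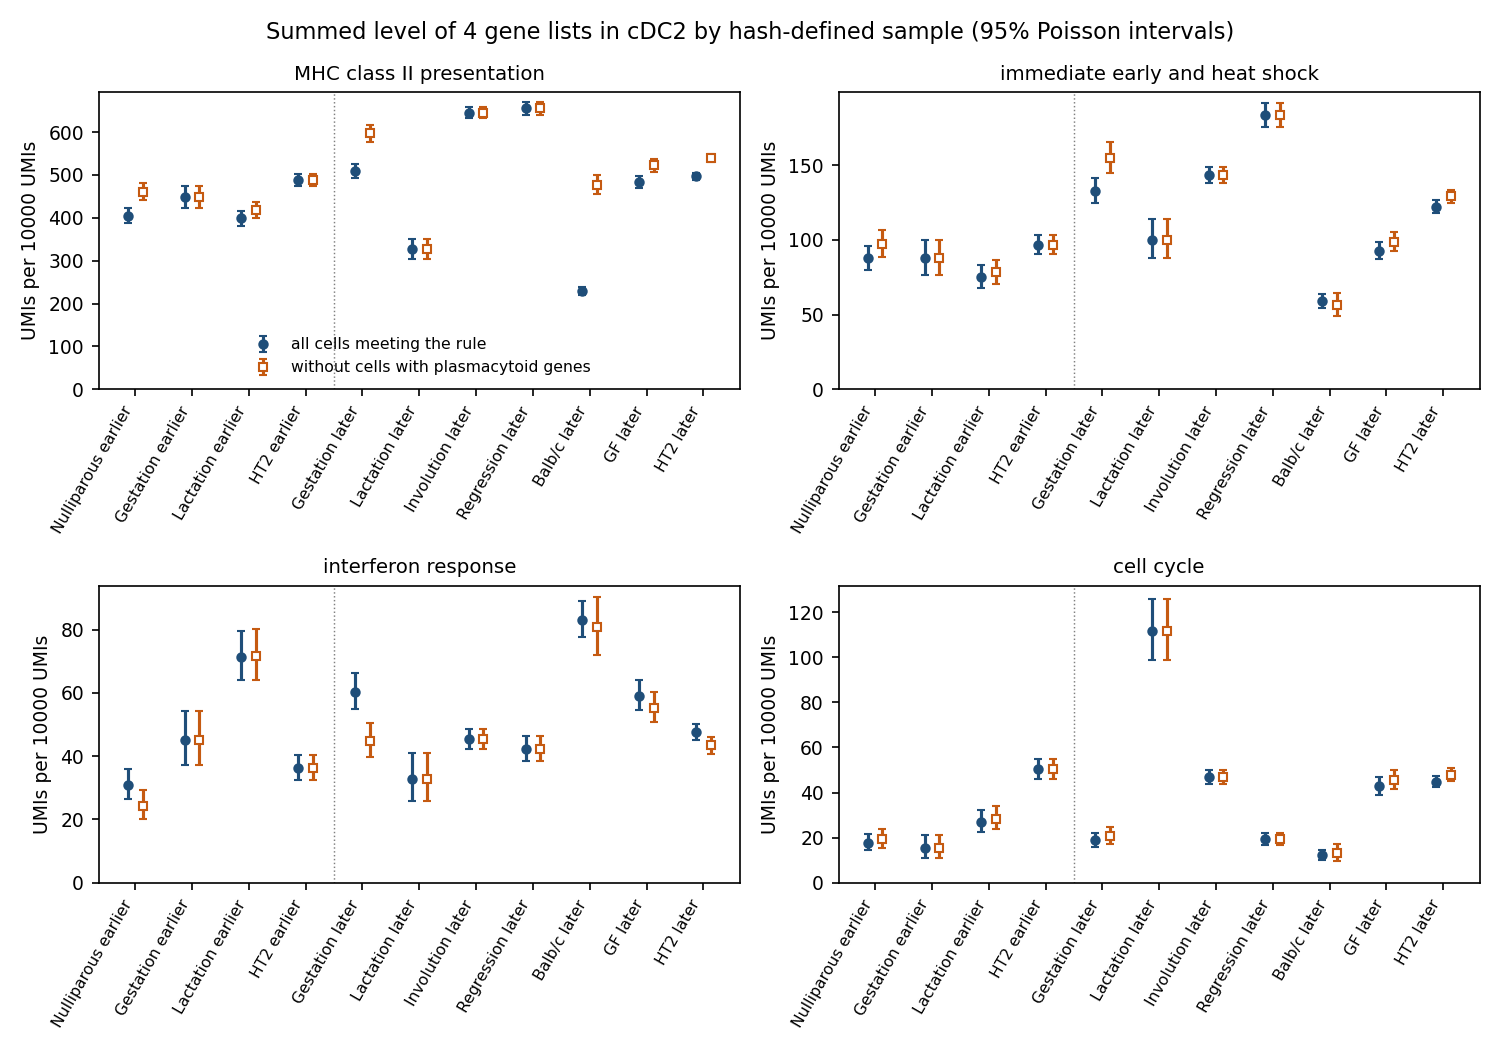
Summed UMIs of 4 gene lists per 10000 UMIs of cDC2 (vertical) in each hash-defined sample (horizontal), with 95% Poisson intervals, for all cDC2 (circles) and without the plasmacytoid-gene cells (squares). Class II stands at 229 in Balb/c with all cells, the immediate early genes peak in Regression (184), interferon genes in Balb/c and earlier Lactation, and the cell cycle value of later Lactation (112) comes from 3 cells.

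Genes of proliferating cells were detected in a minority of cDC2. A UMI of Mki67 or Top2a, which encode a nuclear antigen and a topoisomerase of dividing cells, was present in 10 of 84 cDC2 of the earlier library (11.9%) and 18 of 139 of the later library (12.9%). The same held for 23.7% and 30.6% of cDC1, 8.79% and 6.25% of monocytes and, as a background, 5.14% and 4.85% of B cells. cDC1 were also deeper than cDC2 in both libraries, and the part of depth in this order was not tested. By sample, the counts were 6 of 37 and 10 of 38 in HT2, 4 of 28 in Involution, 3 of 21 in Nulliparous, 2 of 17 in GF, 1 of 16 and 1 of 3 in Lactation, and 1 of 19 in Balb/c. None of the 10 and 15 cells of Gestation and none of the 19 of Regression had such a UMI. The summed cell cycle list was 50.3 and 47.8 in HT2, 46.8 in Involution and 45.6 in GF (60.5% in 1 cell), 111.8 in later Lactation (85.1% in 1 cell), and 13.1 to 28.5 in the others.

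The genes that differ between cDC2 of Lactation and of Gestation could be tested only under an alternative, looser tag call (quantile 0.95 in place of 0.99), which gave 10 and 17 cells in Gestation and 23 and 13 in Lactation. With the library as a block, edgeR's quasi-likelihood test with Benjamini-Hochberg adjustment called 9 of 1010 genes (0.891%), 8 higher (0.792%) and 1 lower (0.099%) in Lactation, and 72 passed at an unadjusted p under 0.05. This fit leaves 1 residual degree of freedom, so its p-values rest mostly on a spread borrowed from all genes. Ifi27l2a rose from 6.56 to 31.3 normalised UMIs per 10000 in the earlier and from 13.7 to 29.6 in the later library (log2 fold change 1.48 ± 0.28 SE, edgeR adjusted p = 6.67e-05), with at most 45.5% of its UMIs in 1 cell. At the main tag call later Lactation held 3 cDC2, and without plasmacytoid-gene cells its Ifi27l2a level lay below that of later Gestation (values above). The rise in the later library thus rests on the looser call. The chemokine receptor gene Ccr2, which brings monocyte-lineage cells out of blood, rose from 6.56 to 12.6 and from 6.42 to 16.4 (1.21 ± 0.34, edgeR adjusted p = 0.0471). Lyz2, the lysozyme gene of myeloid cells, rose from 5.37 to 20.9 and from 33.4 to 51.5 (edgeR adjusted p = 0.0322), and the tubulin gene Tuba1b from 1.79 to 3.91 and from 1.97 to 7.27. H2-Ob, a chain of H2-O, which restrains the loading of class II with peptide, fell from 4.77 to 0 and from 2.30 to 0.16, with 1 UMI left in Lactation.

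The remaining calls rest on few cells, and like Lyz2, which had 53.7% of its later Gestation UMIs in 1 cell, they were named after their values were seen. Ccl5, Ctsw and AW112010, genes of cytotoxic lymphocytes, were called higher in Lactation, but 56.5% and 71.4% of the Ccl5 UMIs in the Lactation samples came from 1 cell each, as did 56.3% and 91.3% of those of Ctsw and 65.7% and 86.7% of those of AW112010. In the Lactation cells of the earlier library, 88 UMIs of the granzyme gene Gzma came from 4 of 23 cells. Hmgb2 had 78.3% of its UMIs of later Lactation in 1 cell. The plasmacytoid-gene cells numbered 0 and 3 in Gestation and 1 and 2 in Lactation at this tag call.

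cDC2 were compared with cDC1 within 7 samples that held at least 10 cells of both (167 and 143 cells), leaving out every gene that either gate used. The gates choose cells by genes that vary together with others, so these comparisons describe what goes along with the gate genes. Levels are UMIs per 10000 after TMM normalisation. edgeR's quasi-likelihood test with Benjamini-Hochberg adjustment called 325 of 1101 genes (29.5%), 182 higher (16.5%) and 143 lower (13%) in cDC2. The count was 122 of 654 tested genes within the earlier library alone. It was 327 of 2272 within the later one, of which 189 were shared with the 325. When every cell was thinned to 1000 UMIs it was 54 of 203. Clec7a, the beta-glucan receptor Dectin-1, stood at 1.69, 4.0 and 5.40 (lowest, median and highest sample) in cDC2 and at 0, 0.0975 and 0.278 in cDC1 (log2 fold change 5.37 ± 0.37, edgeR adjusted p = 3.92e-09). Zeb2, a repressor linked to cDC2 development, stood at 5.72, 6.87 and 7.96 against 0, 0.102 and 0.293 (5.13 ± 0.30). Wfdc17, a secreted protease inhibitor gene, stood at 6.38, 12.8 and 14.9 against 0, 0.278 and 0.962 (4.34 ± 0.29). These 3 genes were named for large changes in the same direction in every sample. How many of the 1101 genes had sample ranges that lay apart was not counted.

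The chemokine gene Ccl9 (5.09 ± 0.39) and the membrane protein genes Tmem176a (5.09 ± 0.32) and Tmem176b (4.56 ± 0.31) were higher in all 7 samples. So were Tnip3 (4.47 ± 0.40), Emb, an adhesion molecule gene (3.83 ± 0.34), Klrd1, the CD94 receptor gene best known from NK cells (3.16 ± 0.33), the cathepsin A gene Ctsa (2.97 ± 0.29) and Ifitm2 (2.82 ± 0.27), all as log2 fold changes. Tent5a, a poly(A) polymerase gene, completed the 12 largest at 3.95.

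Of 21 genes listed for cDC1, 11 were tested and used by no gate. Of these, 10 were lower in cDC2 and none higher, with a median log2 fold change of -3.5 against 0.0023 over all tested genes. Genes nearly absent from cDC2, such as Tlr3 and Rab7b, passed the low-count filter through cDC1 alone, so the filter set their direction. Ppt1, a lysosomal thioesterase gene, stood at 0.472, 0.841 and 1.49 in cDC2 against 10.7, 15.6 and 22.6 in cDC1 (-3.98 ± 0.17, edgeR adjusted p = 1.04e-11). Naaa, a lysosomal amidase gene, stood at 0, 1.79 and 2.61 against 13.3, 17.2 and 24.1 (-3.5 ± 0.21). Tlr3, the sensor of double-stranded RNA, had 3 UMIs in cDC2 and 291 in cDC1, a ratio of 0.0116 (0.00238 to 0.0343). Rab7b, a late endosome GTPase gene, had 5 against 357, a ratio of 0.0158 (0.00509 to 0.0372). Cd24a (-3.71), Wdfy4, which is needed for cross-presentation (-2.86), and the adhesion gene Cadm1 (-2.71) were lower in all 7 samples. Ifi205, Rtl8a, Septin3, Trim35 and Rab32 were the other genes among the 12 largest falls, between -4.18 and -2.52.

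Transcription factors split between the classes. Irf8 stood at 0, 3.69 and 7.52 in cDC2 and at 23.8, 33.6 and 37.2 in cDC1 (-3.34 ± 0.32), and the log2 difference was -5.79 without the plasmacytoid-gene cells. Id2, a repressor of E proteins, stood at 0.280, 1.72 and 3.01 against 8.23, 11.4 and 15.3 (-3.08 ± 0.26), and Batf3 at 0.894, 1.47 and 2.29 against 1.58, 3.1 and 4.17 (-1.03 ± 0.23). Klf4 was higher in cDC2 in 6 of 7 samples (1.07 ± 0.22) and Notch2 lower (-0.75 ± 0.27, edgeR adjusted p = 0.0422). Tcf4, which encodes the E protein E2-2 of plasmacytoid cells, was higher (2.44 ± 0.30), and the log2 difference was 1.80 without the plasmacytoid-gene cells. Bst2 was higher at 1.02 and stood at 0.36 without them (edgeR adjusted p = 0.26).

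**Figure D4:**
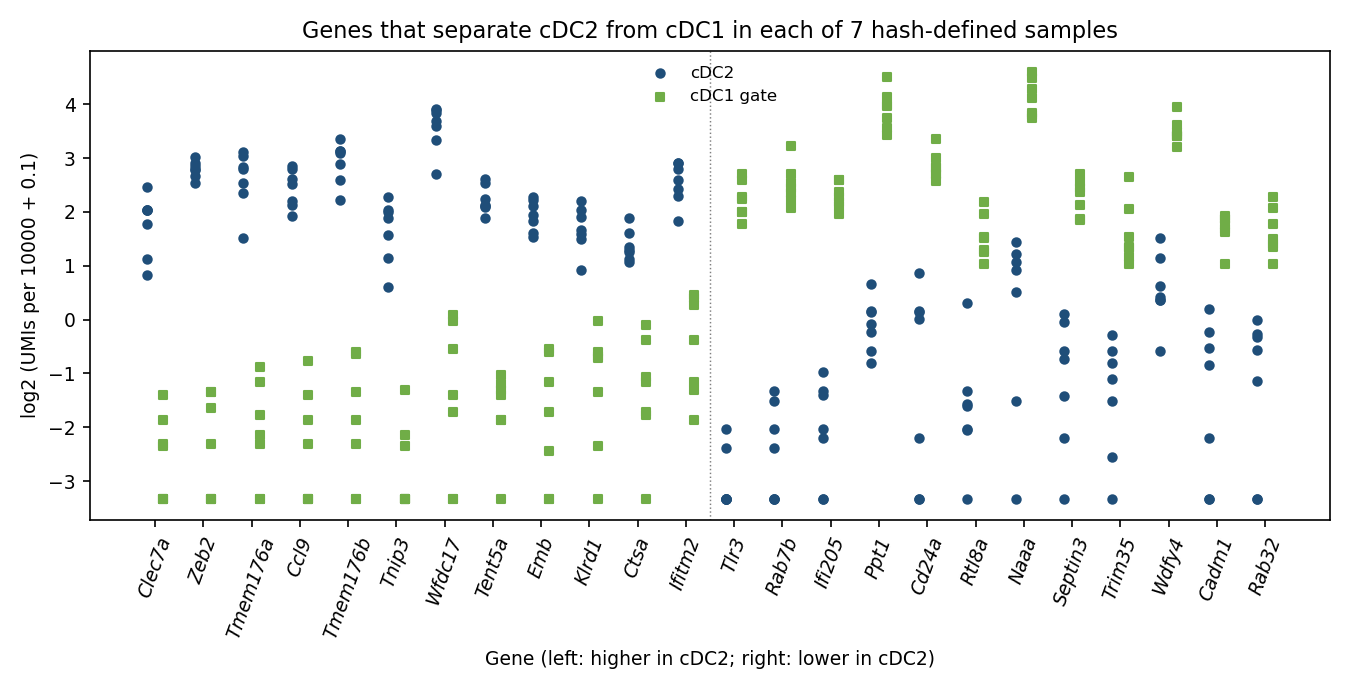
Level of the 12 genes most increased and the 12 most decreased in cDC2 against cDC1 (horizontal) in each of 7 hash-defined samples, as log2 of UMIs per 10000 plus 0.1 (vertical), with circles for cDC2 and squares for cDC1. The genes shown were chosen for large changes in the same direction in every sample. Examples are Clec7a (lowest cDC2 sample 1.69, highest cDC1 sample 0.278 UMIs per 10000) and Ppt1 (highest cDC2 sample 1.49, lowest cDC1 sample 10.7).

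Of 33 genes listed for cDC2, 9 were tested and used by no gate. Of these, 6 were higher in cDC2 (Zeb2, Tnip3, S100a4, Cd300a, Fcer1g, Klf4) and 2 lower (Notch2, Clec12a), with a median of 1.88. Those nearly absent from cDC1, such as Tnip3 and Zeb2, were tested only because cDC2 carried them. S100a4, a calcium-binding protein gene, stood at 13.3, 20.7 and 23.9 in cDC2 and 0.221, 1.05 and 3.05 in cDC1 (3.92 ± 0.21). Fcer1g, the signalling chain of Fc receptors, stood at 14.3, 20.6 and 32.2 against 3.33, 5.61 and 8.61 (1.88 ± 0.11). Of 25 listed monocyte genes 6 were tested, and of these 4 were higher in cDC2 and none lower: Ms4a6c (2.47), Ly6c2 (2.21), Nr4a1 and Ccr2 (0.57). Ly6c2 was higher in 5 of 7 samples and is one of the genes that were high in the plasmacytoid-gene cells.

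Antigen presentation genes differed by kind of machinery. Of 13 MHC class II genes, 6 were higher in cDC2 and 1 lower, with a median of 0.22. The differences were small for the class II chains, with H2-Eb1 at 0.35 ± 0.08, Cd74 at 0.32 ± 0.06, H2-Aa at 0.31 ± 0.07 and H2-Ab1 at 0.06 ± 0.07 (edgeR adjusted p = 0.626). They were larger for lysosomal enzymes: Ifi30, a thiol reductase gene, at 1.51 ± 0.12, and the cathepsin genes Ctss at 1.34 ± 0.12 and Ctsb at 1.32 ± 0.21. H2-Ob was lower (-0.93 ± 0.27). Of 10 MHC class I genes, 3 were higher (H2-K1, B2m and H2-D1, between 0.40 and 0.44) and 4 lower, namely the immunoproteasome subunits Psmb9 (-1.68 ± 0.16) and Psmb8 (-1.06 ± 0.13), the peptide transporter Tap1 (-0.97 ± 0.21) and the chaperone Pdia3 (-0.54).

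Of 19 immediate early and heat shock genes, 12 were higher in cDC2 and 1 lower (Klf2), with a median of 0.65. Nfkbia, the inhibitor of NF-kB, stood at 2.68, 8.69 and 11.4 against 0.195, 1.59 and 2.63 (2.17 ± 0.30), Jun at 6.26, 9.04 and 15.0 against 0.714, 2.88 and 3.85 (1.82 ± 0.17), and Zfp36, which speeds the decay of cytokine mRNA, at 5.21, 7.02 and 14.9 against 0.886, 1.93 and 5.19 (1.78 ± 0.18). Both classes came from the same dissociated samples, and whether dissociation acted alike on both was not tested. Of 15 tested genes listed as shared by conventional dendritic cells, 6 were higher in cDC2 (Kmo, Traf1, Napsa, Ccnd1, Ikzf1, Bcl11a) and 6 lower (Batf3, Dpp4, Cst3, Plbd1, Pak1, Id2), with a median of -0.024. Cst3, the cystatin C gene used as a general mark of conventional dendritic cells, was lower in cDC2, at 48.9, 61.9 and 80.1 against 276, 316 and 418 (-2.33 ± 0.08). Psap, a lysosomal sphingolipid activator gene, was lower as well (-1.19 ± 0.11).

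**Figure D5:**
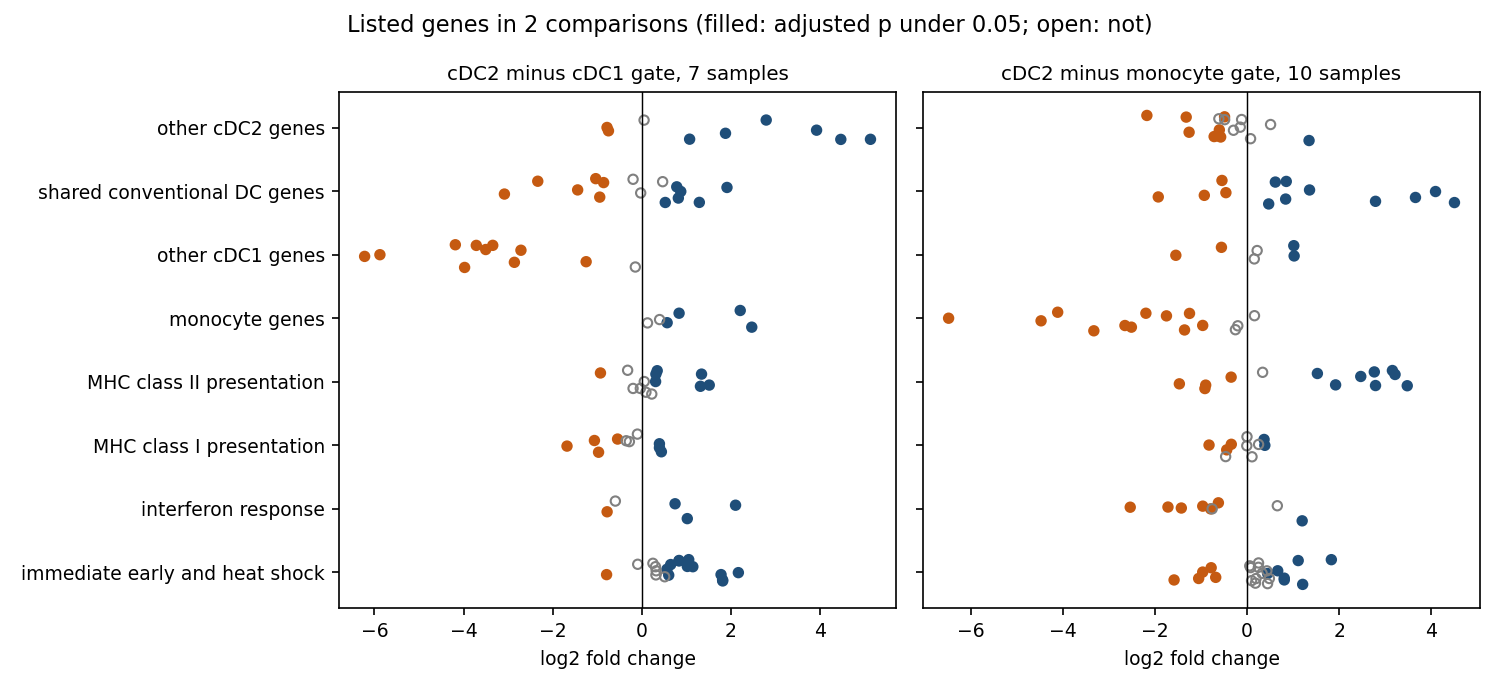
Log2 fold change (horizontal) of each tested gene of 8 lists (rows), for cDC2 minus cDC1 over 7 samples (left) and cDC2 minus monocytes over 10 samples (right); filled points passed the adjusted threshold and open ones did not. The listed cDC1 genes lie left of zero in the left panel (10 of 11 lower), and the monocyte genes lie mostly left of zero in the right panel (11 of 14 lower). Genes nearly absent from a class passed the low-count filter through the other class, which set their direction.

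Against monocytes, compared within 10 samples (220 and 664 cells), cDC2 differed by higher class II and lower monocyte genes. The monocyte gate asked for UMIs of Ly6c2, Plac8 or F13a1 and of Csf1r or Ccr2, and for none of Flt3. Genes used by either gate were again left out of the counts. The test called 620 of 1781 genes (34.8%), 314 higher (17.6%) and 306 lower (17.2%). The monocyte gate held NK cell genes, with a UMI of Nkg7, Gzma or Ncr1 in 30.3% and 36.1% of its cells in the 2 libraries, against 13.1% and 20.9% of cDC2. With monocytes limited to cells without them, 607 of 1393 tested genes were called, 469 of them shared. The count was 207 of 1374 within the earlier library alone and 201 of 436 in thinned cells. H2-Eb1 stood at 29.7, 105 and 136 (lowest, median and highest sample) in cDC2 and at 3.55, 9.59 and 22.7 in monocytes (3.48 ± 0.24, edgeR adjusted p = 3.28e-09). Cd74 stood at 109, 232 and 359 against 18.3, 29.6 and 61.6 (2.76 ± 0.14). The lowest cDC2 value of H2-Eb1 was that of Balb/c, where 12 of 19 cells were plasmacytoid-gene cells.

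H2-Aa (3.21 ± 0.19), H2-Ab1 (3.16 ± 0.18) and Ciita, the class II transactivator gene (2.79 ± 0.19), were higher in all 10 samples. Of the 13 class II genes 8 were higher and 4 lower, with a median of 1.92 against 0.011 over all tested genes. The 4 that were lower encode the lysosomal proteases Ctsd (-1.47 ± 0.22), Lgmn (-0.92 ± 0.21), Ctsb (-0.90 ± 0.19) and Ctss (-0.35 ± 0.11). Thus the cathepsin genes Ctsb and Ctss were higher in cDC2 than in cDC1 and lower in cDC2 than in monocytes, in comparisons that share cDC2 samples.

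Kmo, an enzyme gene of the kynurenine pathway, led the genes that were higher than in monocytes, at 1.21, 1.99 and 5.84 against 0, 0.0807 and 0.386 (4.50 ± 0.28). The cyclin D1 gene Ccnd1 (4.09 ± 0.33), the transcription factor gene Bcl11a (3.66 ± 0.21), the lectin gene Clec4b1 (3.20 ± 0.30), Olfm1 (2.98 ± 0.21), the receptor gene Slamf7 (2.53 ± 0.20) and the creatine kinase gene Ckb (2.51 ± 0.21) followed. Of 13 tested genes listed as shared by conventional dendritic cells, 9 were higher and 4 lower. Cst3, which was lower than in cDC1, was higher than in monocytes, at 37.9, 62.1 and 79.8 against 24.5, 38.0 and 45.1 (0.61 ± 0.11).

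Of 25 listed monocyte genes 14 were tested and used by no gate, and of these 11 were lower in cDC2 and none higher. Genes nearly absent from cDC2, such as Chil3, passed the low-count filter through the monocytes alone, which set their direction. Chil3, a chitinase-like protein gene, had 6 UMIs in cDC2 and 1359 in monocytes, a ratio of 0.00829 (0.00304 to 0.0181). Lyz2 stood at 5.13, 21 and 34.4 against 80.3, 116 and 171 (-2.51 ± 0.22). The transcription factor gene Cebpb (-4.11 ± 0.18), the peptidase gene Ace (-4.47 ± 0.28) and Gngt2 (-3.33 ± 0.24) were lower in all 10 samples. Hes1, a Notch target gene, was lower by -4.69 ± 0.26, and the apolipoprotein gene Apoe by -2.82 ± 0.26. Other named genes that were lower were Gsr, Msrb1, Pla2g7, Abi3, Itgal, Ms4a4b, Il2rb and Nkg7, of which the last 3 mark lymphocytes. Several genes listed for cDC2 were lower than in monocytes (8 of 16 lower, 1 higher): Cx3cr1 at -2.18 ± 0.25, Itgam at -0.72 ± 0.19 and Sirpa at -0.57 ± 0.17, with Cbfa2t3 higher at 1.35 ± 0.13. Ccr2 stood at 6.27, 11.8 and 15.5 against 6.02, 9.98 and 15.1. The monocyte gate used this gene, so its level in monocytes is partly set by the gate and no test is read from it.

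Some calls against monocytes turned on which cells were kept. Ccl5 was lower in cDC2 (-2.60 ± 0.35) and was higher by 1.11 against monocytes without NK cell genes (edgeR adjusted p = 0.0146). Bst2 was higher by 1.20 ± 0.37 and stood at 0.01 without the plasmacytoid-gene cells (edgeR adjusted p = 0.99). Of 9 tested interferon genes, 6 were lower than in monocytes and Bst2 alone was higher. Whether the difference of cDC2 from cDC1 or from monocytes itself differed between libraries was tested with edgeR's quasi-likelihood test. It gave 0 calls in 1101 and 1781 genes, with 35 and 70 genes at an unadjusted p under 0.05. What size of change this test could detect was not examined.

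Migratory dendritic cells are conventional dendritic cells that have matured and switched on the lymph node homing receptor CCR7. They could be compared with cDC2 in Nulliparous and in later HT2 (59 cDC2 and 26 migratory cells), which leaves 1 residual degree of freedom, so the spread is borrowed from all genes. The test called 239 of 929 genes (25.7%), 103 higher (11.1%) and 136 lower (14.6%) in cDC2. DESeq2 called 44 of 10906 genes, of which 43 were shared. In the order Nulliparous and HT2, Ccr2 stood at 7.59 and 10.5 in cDC2 and had no UMI in migratory cells, so it was at least 32.5-fold higher against a floor of 3 counts over the group. On the same floor Plac8 was at least 25.3-fold, the inhibitory Fc receptor gene Fcgr2b at least 10.4-fold, Cd209d at least 9.10-fold and the lysosomal gene Cd68 at least 8.47-fold higher. Tent5a, Ckb, Cyth4, Itgb7, Emb, Tep1 and Cd300c2 were the other named genes, at least 7.46-fold to 15.0-fold higher.

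Of 27 listed migratory genes 17 were tested, and of these 15 were lower in cDC2 and none higher. Those nearly absent from cDC2, such as Apol7c, passed the low-count filter through the migratory cells alone, so the filter set their direction. Ccr7 stood at 0 and 0.0926 in cDC2 (2 UMIs in all) and at 15.5 and 13.2 in the migratory cells. Apol7c had no UMI in cDC2 and 166 in migratory cells, at least 146-fold lower, and the calcium channel subunit gene Cacnb3 and the tetraspanin gene Cd63 were at least 67.7-fold and 59.8-fold lower. Il4i1, an amino acid oxidase gene, had 5 UMIs against 69, a ratio of 0.0275 (0.00865 to 0.0673), and Socs2, a cytokine signalling inhibitor gene, 6 against 69, a ratio of 0.0330 (0.0117 to 0.0755). Class II genes were higher in cDC2 (7 of 10, none lower), with H2-Ab1 at 110 and 101 against 15.5 and 28.8 (2.27 ± 0.27, edgeR adjusted p = 1.62e-05), H2-DMa at 3.5 ± 0.53 and Cd74 at 1.28 ± 0.24. Of 10 class I genes, 3 were lower (B2m, H2-K1, H2-D1), none was higher and 7 did not pass, with B2m at 15.4 and 20.8 against 73.7 and 43.1 (-1.61 ± 0.29). The fatty acid binding protein gene Fabp5 stood at 0.979 and 0.694 against 32.1 and 21.2 (-4.94 ± 0.40). Of 9 lipid handling genes 5 were lower, of which Fabp5, Npc2 and Abcg1 stood lower in both samples. Fabp4, which is also the 1 tested gene of the stromal and endothelial list, stood at 0.979 and 18.7 in cDC2 against 0 and 310 in migratory cells, and Cd36 at 0.490 and 2.27 against 0 and 32.0, so both calls rest on later HT2. Of 25 listed monocyte genes 6 were tested, and all 6 were higher in cDC2, among them Lyz2 (5.07 ± 0.54). Genes nearly absent from the migratory cells, such as Ccr2 and Plac8, were tested only because cDC2 carried them. Their direction is therefore no separate evidence.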

How the data were processed

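CD45+ mammary gland cells were sequenced on the 10x Genomics 3' platform in 2 hash-tagged libraries, per the labels' protocols. What the authors deposited are matrices of unnormalised UMI counts for genes and of counts for hash tags. The submitters' processing notes name Cell Ranger 6.1.0 and mm10, and per the file headers the earlier gene matrix came from Cell Ranger 4. Genes were matched by symbol between the libraries (55253 matched, 234 entries sharing a symbol left out). Positions come from RefSeq (GRCm38.p6).

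Barcodes entered with 500 or more UMIs, 300 or more detected genes and no more than 10% of UMIs from mitochondrial genes. Tags were called with HTODemux (Seurat 5.3.0, quantile 0.99), on named tags with at least 100 counts, and doublets with Scrublet (scanpy 1.11.5, Python 3.11.15, expected rate 0.08), which called 7.86% and 6.87% of cells. Counts were summed per hash-defined sample and class with at least 10 cells and tested with edgeR 4.0.16 (R 4.3.3): TMM, filterByExpr, quasi-likelihood test with the sample as a block, Benjamini-Hochberg over all genes tested, threshold 0.05. Standard errors are the log2 fold change divided by the square root of F. DESeq2 1.42.0 was an alternative. Named genes are the 12 largest changes in each direction that moved alike in every sample, with at most 50% of a sample's UMIs in 1 cell, without unnamed models, ribosomal, mitochondrial, receptor segment and gate genes. Examples of fixed gene lists were added. Counts were simulated for each comparison from the trended dispersion, with no sample differences. There, 100% of 2-fold changes were recovered for cDC1 and monocytes, 23% (and 89% of 4-fold) for migratory cells, and 50% (and 100% of 4-fold) for Lactation against Gestation. Genes more variable than the trend were not simulated, so recovery in the data can be lower. The cells, lists and rules were chosen with earlier results of these data known. Alternatives covered normalisation, filters, depth, gates, tag calls, libraries and left-out samples. One gene that the naming rule took in the monocyte comparison is not reported here.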

Additional observations from a re-analysis of the deposited data

Results flagged for a closer look

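The difference in cDC2 share between Lactation and Gestation pointed in opposite directions in the libraries, at 0.434 percentage points in the earlier and -0.0676 in the later one. There was 1 sample of each stage in each library, so the difference between libraries was not tested. The later Lactation sample held 3 cDC2 and had the weakest tag.

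Signal also appeared in cells that no test and no value per sample used. The descriptions of all 298 cells, and of the 35 against the 263, include them. Cells with more than 1 tag held 41 cells that met the cDC2 rule (10 in the earlier and 31 in the later library), of 6984 such cells (0.587%). Cells with no called tag held 26 more, of 4833 (0.538%). The share among cells with exactly 1 tag was 0.746% (231 of 30964). Of the 41 cells, 5 were plasmacytoid-gene cells.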

How the results depend on the processing

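The number of genes called between cDC2 and cDC1 (325 of 1101 tested) was 773 of 12958 with no filter on low counts. It was 54 of 203 with cells thinned to 1000 UMIs and 122 of 654 in the earlier library alone. It stayed between 221 and 409 under the other settings tried, where the number of genes tested also varied. Against migratory dendritic cells (239 of 929) it was 394 of 10906 with no filter, 44 of 10906 with DESeq2 and 65 of 234 after thinning. Otherwise it stayed between 194 and 301. Against monocytes (620 of 1781) it was 1491 of 14706 with no filter and 1032 of 14706 with DESeq2. After thinning it was 201 of 436, and in the earlier library alone 207 of 1374. Otherwise it stayed between 607 and 732. With no filter the monocyte calls were 541 higher and 950 lower. With DESeq2 the median log2 difference over all genes tested lay at 0.12 against cDC1, 0.27 against migratory dendritic cells and 0.22 against monocytes, and with no filter at 0.37 against migratory dendritic cells, so differences there are read relative to those shifts; under every other setting tried it lay within 0.1 of 0. Thinning and the single library test fewer UMIs or samples by construction; the cause of the other shifts was not tested. With monocytes limited to cells without NK cell genes, Ccl5 turned from lower to 1.11 higher and Hspa1a went from 0.45 to -0.012. For the cDC2 share of cells, the Lactation minus Gestation difference ranged from 0.0444 to 0.322 when each sample was left out in turn, and from 0.00138 (Flt3 required) to 0.386 (tag quantile 0.95) over the other settings. The alternatives without the plasmacytoid-gene cells, without HT2, without Balb/c and without NK cell genes were chosen after seeing the data. Not run were the migratory comparison within single libraries, at tag quantile 0.95 or without 1 of its 2 samples, and the Lactation against Gestation gene test at other settings, since too few cells or samples remained. The class comparisons were paired within samples and the stage comparison within libraries from the outset, and the labels carry no replicate numbers that could pair samples in another way.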

Other observations

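Other gene groups in the 263 cDC2 without plasmacytoid genes are given as UMIs per 10000, with no test. These cells include those with more than 1 tag, no tag or a Scrublet call. Among chemokine genes, Ccl6 stood at 5.52 and Ccl9 at 4.21, against 0.90 and 0.79 in the 35 plasmacytoid-gene cells, whereas Ccl4 stood at 3.96 against 9.90. Among cytokine genes, Il1b stood at 2.73 and Tgfb1 at 2.34, against 1.27 and 3.81. Among receptors of hormones and growth factors, Ifngr1 stood at 2.73 against 0.79, the GM-CSF receptor gene Csf2ra at 1.98 against 0.53 and the glucocorticoid receptor gene Nr3c1 at 1.12 against 2.28, and the prolactin receptor gene Prlr had no UMI in either. The mannose receptor gene Mrc1 stood at 2.30 against 0.32 and the IL-33 receptor gene Il1rl1 at 0.87 against 0.05.

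By sample, Il1b was highest in earlier Gestation (6.80) and Regression (5.84) and lowest in earlier Lactation (0.44) and later HT2 (0.63). Ccl6 stood at 11 in Regression and 10.4 in Balb/c, and between 2.00 and 6.69 in the other samples. The Balb/c value rests on 7 cells, of which 1 held 54.2% of the summed chemokine UMIs. Fabp4, a fatty acid carrier gene of fat and endothelial cells, stood at 16.8 in later HT2 and between 0 and 2.33 in the other samples.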
